A study of Rattus norvegicus with 20 samples.

Results

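The comparison described here is that of rat dorsal root ganglia 14 days after a Seltzer injury of the sciatic nerve with ganglia 14 days after a sham operation. Its members are the 2 arrays titled Seltzer at 14 days and the 2 titled sham at 14 days, 4 of the 20 arrays of the series, and all probe sets other than the array's own controls were compared. The Seltzer injury is a partial injury in which part of the sciatic nerve is tied off, and the labels describe these samples as following sciatic nerve transection surgery. Sham animals were operated without the nerve injury. Each sample was total RNA of whole ganglia of the operated side, read on 1 Affymetrix rat array. Of the other groups, 3 are compared below. Chronic constriction injury (CCI), in which the nerve is loosely tied, is used at 14 days (n = 3). Seltzer and sham are also used at 21 days (n = 3 each). All 20 arrays entered the estimate of the spread behind the p-values. Strain, sex, age and the number of animals per sample are not stated in the labels. The p-values therefore measure only the spread between samples of the same group over these 20 arrays, which may be technical. A ganglion after a partial injury holds neurons with cut axons beside neurons with intact ones, and in such bulk samples fewer cells of a type and less RNA per cell cannot be told apart.

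A dorsal root ganglion holds the cell bodies of sensory neurons, each wrapped in satellite glia, with Schwann cells along the axons and resident macrophages between them. When an axon is cut, its cell body loses the supply of trophic factors from the target tissue and switches from transmission to growth. Injured sensory neurons are known to induce the transcription factors Atf3 and Jun, to make the neuropeptides galanin, neuropeptide Y and PACAP, and to raise the growth cone protein Gap43. They are also known to lower many channels and peptides of the resting nociceptor, while immune cells that carry MHC class II gather around them.

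Values are the deposited intensities on a linear scale, which can be below 0. The background level of an array was set from its negative readings, as the size that 95% of them do not exceed. This level was 235 and 169 on the Seltzer arrays and 224 and 248 on the sham arrays, and 20.5% and 25.8% against 21.3% and 20.5% of the probe sets lay above it. Ratios of the 3' to the middle GAPDH control probe set, which grow as RNA degrades, lay between 1.74 and 2.04 on the 4 arrays and overlapped. The 3' to 5' ratios separated the groups, at 1.95 and 2.05 in Seltzer against 2.43 and 2.18 in sham ganglia for GAPDH, and 1.97 and 1.92 against 2.40 and 2.38 for actin. Their part in the results was not tested. Across probe sets, which are not independent replicates, Pearson's r of log2 values was 0.944 between the Seltzer arrays, 0.930 between the sham arrays and 0.933 to 0.942 between the groups. The arrays of 14-day Seltzer and 14-day sham ganglia shared levels that set them apart from the other arrays of the series at some probe sets. Gnb1, a G protein subunit, read 200.1 and 176 on the Seltzer arrays and 118 and 178 on the 14-day sham arrays, but 1561, 1607 and 1539.8 on the CCI arrays of the same day and 1564, 1766 and 1794 on the 21-day sham arrays. Between the 14-day and the 21-day sham arrays 225 of 8740 probe sets (2.57%) differed at an adjusted p under 0.05. The labels give a lot batch for some arrays of other groups but none for these 4. The CCI arrays, of the same day after surgery, did not share the Gnb1 level of these 4 arrays. Whether the differences come from how the arrays were made or from another cause was not tested.

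Of 8740 probe sets, 12 rose (0.137%) and 6 fell (0.0686%) in Seltzer against sham ganglia at an adjusted p under 0.05 in limma. At an unadjusted p under 0.05 there were 330, fewer than 5% of the probe sets tested (437). Of the 18 that passed, 9 were above background on none of the 4 arrays, and 8 had a mean above 250 in either group. These 8 were Npy, Atf3, RT1-Da, Cacna2d1, Adcyap1 and Ptpro, which rose, and Kctd13 and Psmb4, which fell. Both Seltzer arrays lay above both sham arrays for 1562 probe sets (17.9%) and below both for 1551 (17.7%). Among the 1853 probe sets with a mean above 250 in either group, a level above the background of each of the 4 arrays, these were 410 (22.1%) and 418 (22.6%). With 2 arrays against 2, an exact permutation test of a single probe set cannot go below a two-sided p of 0.333, so separation of the arrays is given as a description. Of the 828 separated probe sets, 62 were more than 1.5-fold higher and 103 more than 1.5-fold lower, while 24 were more than 2-fold higher and 13 more than 2-fold lower. The median size of the log2 difference was 0.19 between the 2 Seltzer arrays, 0.23 between the 2 sham arrays and 0.21 between the group means. In the fit with only these 4 arrays none passed in limma, with 752 at an unadjusted p under 0.05. Each call below thus rests on a spread estimated over all 20 arrays, and these differed in quality. The Seltzer arrays at 50 days had background levels of 765 and 597 and GAPDH 3' to middle ratios of 8.89 and 5.10. CCI replicate 1 at 21 days had a background level of 499.

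**Figure D1:**
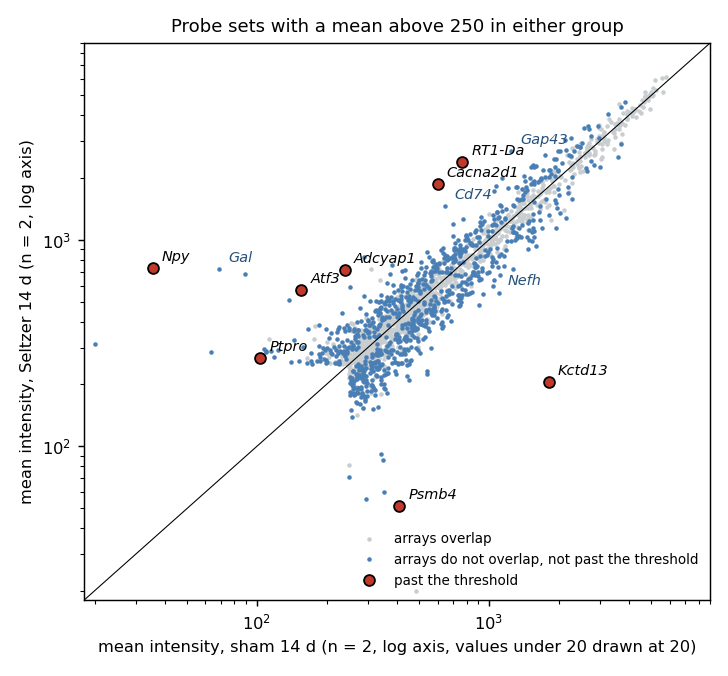
Mean intensity in sham ganglia (x axis) and in Seltzer ganglia (y axis) at 14 days, both on log axes with 2 arrays a group, for the 1853 probe sets with a mean above 250 in either group. Red points passed an adjusted p of 0.05, blue points are other probe sets whose arrays do not overlap, and the line marks equal means. Of the 8 red points 6 lie above the line and 2 below it. Some blue points, such as Gal, lie farther from the line than some red ones.

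The largest rise among the probe sets that passed was that of the neuropeptide Npy, which sensory neurons hardly make until their axons are cut. Npy read 805 and 657 on the Seltzer arrays against 46.1 and 24.9 on the sham arrays. Both Seltzer arrays were well above background and both sham arrays below it, so the rise was at least 3.09-fold, by 3.88 on the log2 scale (SE 0.65, adjusted p = 0.0319). This call was lost without any 1 of the 4 arrays, with an adjusted p of 0.0929 and 0.139 without Seltzer replicate 1 and 2, and of 0.0585 and 0.154 without sham replicate 1 and 2. Its log2 change ran from 3.58 to 4.18 over those 4 fits. The call was also lost with 1 added in place of 16 (adjusted p = 0.995) and without the 50-day arrays (0.0557), and with a floor at 200 the change was 1.78 and passed (0.0224). Galanin, Gal, which dampens pain signalling in the spinal cord and supports regrowth, read 591 and 848 against 103 and 34.9. No sham array was above background and the signal was at least 3.01-fold higher after injury, but the change of 3.22 did not pass (SE 0.67, adjusted p = 0.113). Gal did pass with 64 added (adjusted p = 0.00494), with a floor at 200 (8.22e-06), with the filter on the mean (0.0264), with array weights (0.00342) and with the 21-day sham arrays as control (0.00277). Adcyap1, the gene of the neuropeptide PACAP, rose on 1 of its 3 probe sets, from 261 and 218 to 683 and 739, 2.98-fold (1.51 on the log2 scale, SE 0.24, adjusted p = 0.0222). Its other probe sets read 553 and 510.4 against 241 and 339 (adjusted p = 0.781) and 214 and 222 against 142 and 146 (adjusted p = 1). All 3 were higher on both Seltzer arrays than on both sham arrays. The Adcyap1 call was lost without Seltzer replicate 2 (adjusted p = 0.154), without sham replicate 2 (0.131) and with arrays centred on their median (0.116). Vgf, a precursor of several secreted peptides, read 748 and 903 against 309.9 and 266, a 2.86-fold difference that did not pass (adjusted p = 0.152, and 0.0311 when replicate number was a block). Vip, another peptide of axotomised neurons, read 42.4 and 39.5 against 7.74 and 8.62, below background on every array though the groups did not overlap, and Reg3b, a secreted protein of injured neurons, read 118 and 124 against 29.3 and 22.8, also below background.

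Of the 10 measured neuropeptide genes raised by axotomy, Npy and Adcyap1 had a probe set that passed, Npy alone by its brightest one. By the brightest probe sets, 5 were higher on both Seltzer arrays and 1, Scg2, was lower on both. Over all 4736 genes, each represented by its brightest probe set as in every list below, these shares were 18.9% and 17.8%. The median log2 change of the list was 0.70, against 0.00 over all genes. The list was drawn up from knowledge of axotomy and with earlier results of these data known.

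The promoters of Npy and Vgf are shown because Npy had the largest rise that passed and because Vgf is known as a target of CREB, which acts at the cAMP response element. They cover 250 bases before to 50 bases after the RefSeq start in GRCr8, and the capitals mark matches on either strand to CCAAT, to the cAMP response element TGACGTCA, to the AP-1 site TGANTCA and to the class II X box core TAGCAAC, the last chosen after the sequences were seen.
Npy (chr4:80211861-80212160, plus strand): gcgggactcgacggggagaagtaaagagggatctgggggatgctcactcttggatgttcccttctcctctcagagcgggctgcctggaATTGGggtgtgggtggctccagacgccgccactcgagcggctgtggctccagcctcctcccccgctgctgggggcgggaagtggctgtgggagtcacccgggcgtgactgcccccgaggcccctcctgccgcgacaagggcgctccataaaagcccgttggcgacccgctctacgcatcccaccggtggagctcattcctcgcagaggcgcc
Vgf (chr12:25276971-25277270, minus strand): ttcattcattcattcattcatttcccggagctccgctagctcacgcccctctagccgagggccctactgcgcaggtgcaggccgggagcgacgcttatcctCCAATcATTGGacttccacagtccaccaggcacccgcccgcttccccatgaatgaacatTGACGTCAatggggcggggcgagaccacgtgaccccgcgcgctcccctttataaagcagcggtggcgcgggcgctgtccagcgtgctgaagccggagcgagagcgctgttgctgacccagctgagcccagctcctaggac

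Npy holds 1 CCAAT match, on the reverse strand 162 bases before the start. In Vgf the response element starts 90 bases before the start, and CCAAT matches lie at 149 and, reversed, at 143 bases before it. Of the 33469 RefSeq windows of this length, 1.83% hold the response element, 37.5% CCAAT, 7.33% the AP-1 site and 3.58% the X box core. Of the 10 neuropeptide genes, 7 have a window in the table, and 2 of these, Vgf and Scg2, hold the response element. Vgf was higher and Scg2 lower on both Seltzer arrays, so the element was found beside differences of either sign.

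**Figure D2:**
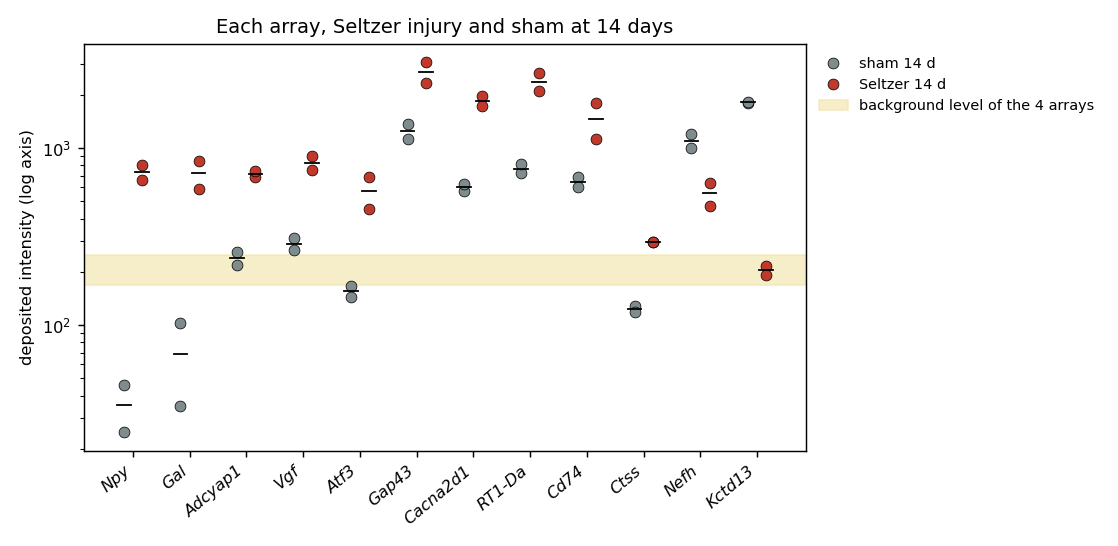
Deposited intensity on each of the 2 Seltzer (red) and 2 sham (grey) arrays at 14 days, on a log axis, for 12 genes. Short lines are group means and the shaded band spans the background levels of the 4 arrays, 169 to 248. Npy, Gal, Atf3 and Ctss lie below or within the band in sham ganglia and above it after injury, and Kctd13 does the opposite.

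Atf3, a transcription factor that is nearly silent in intact neurons and marks those with a cut axon, read 689 and 456 on the Seltzer arrays and 167 and 144 on the sham arrays. It rose at least 2.38-fold, by 1.75 on the log2 scale (SE 0.19, adjusted p = 0.00133). The call held without any 1 of the 4 arrays, with log2 changes from 1.46 to 2.04. Jun, the partner of Atf3 in the AP-1 complex, read 463 and 417 against 233 and 233 on its brightest probe set, a 1.89-fold difference that did not pass (adjusted p = 1). A further Jun probe set read 391 and 260.2 against 133 and 156, while the remaining 2 overlapped. Egr1, an immediate early gene, was 955 and 873 against 743 and 762, and Id3, an inhibitor of helix-loop-helix factors, was 519 and 491 against 281 and 368, neither past the test. Sox11 read 14.7 and 19.4 against 5.30 and 11.1, below background on all 4 arrays. Gadd45a, a stress gene of injured neurons, read 652 and 342 against 235 and 433, and its groups overlapped. Among 26 measured injury transcription factors, with a median log2 change of 0.06, only Atf3 passed. On both Seltzer arrays 14 were higher and 4 lower, against 18.9% and 17.8% of all genes. Only 9 of the 26 were above background on any of the 4 arrays.

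Gap43, a protein of the growth cone, was among the brightest probe sets to differ, at 3048 and 2338 in Seltzer and 1132 and 1362 in sham ganglia. The difference was 2.15-fold and did not pass (log2 1.09, SE 0.31, adjusted p = 0.536). Anxa1, an annexin of regrowing axons and of immune cells, read 679 and 684 against 396 and 357, and Crmp1, a mediator of semaphorin signalling in the growth cone, 437 and 495 against 340.1 and 337, neither past the test. Dpysl2, a member of the same family as Crmp1, went the other way, at 288 and 226 against 359 and 432. Sprr1a, which is strongly induced after a complete axotomy, read 1191 and 875 against 978 and 1145 on its brighter probe set, a log2 change of -0.05 with a 95% interval of -0.71 to 0.61. The small heat shock protein Hspb1, which supports neuron survival after axotomy, gave differences of both signs over its 4 probe sets, from 684 and 492 against 258 and 244 to 523 and 277 against 556 and 592. The 29 measured growth and regeneration genes had a median log2 change of 0.16. Of these, 11 were higher and 3 lower on both Seltzer arrays, against 18.9% and 17.8% of all genes. Cntn1, an axonal adhesion protein, was the only one to pass, at 55.0 and 25.8 against -9.82 and -16.4, values below background throughout. Ptpro, a receptor tyrosine phosphatase of axons, rose from 95.2 and 112 to 246 and 288, at least 1.13-fold (log2 1.24, SE 0.18, adjusted p = 0.0134). Its other 2 probe sets lay below background on all 4 arrays, and the call was lost without Seltzer replicate 2 (adjusted p = 0.116), without sham replicate 1 (0.0654), with values floored at 200 (0.182) and with arrays centred on their median (0.134).

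Among ion channels a single subunit stood out. Cacna2d1, the alpha2delta subunit of voltage-gated calcium channels, carries them to presynaptic terminals and is the binding site of gabapentin. It read 1979 and 1730.5 on the Seltzer arrays and 573 and 629 on the sham arrays, the lowest Seltzer value lying far above the highest sham value. Cacna2d1 rose 3.08-fold, by 1.60 on the log2 scale (SE 0.18, adjusted p = 0.00179), a call held without any 1 of the 4 arrays. The 21-day sham arrays read higher than the 14-day ones, at 1497, 1139 and 1154, and with them as control the change was 0.56 and did not pass (adjusted p = 0.103). The call was also lost with arrays centred on their median (adjusted p = 0.0744). None of the other 13 measured calcium channel genes passed, and the list had a median log2 change of -0.06. Of its members 2 were higher and 3 lower on both Seltzer arrays, against 18.9% and 17.8% of all genes.

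None of 9 measured sodium channel genes passed, and their median log2 change was -0.42. On both Seltzer arrays none was higher and 3 were lower, against 18.9% and 17.8% of all genes. Scn10a, the main channel of action potentials in nociceptors, read 399 and 327 against 542 and 566, a log2 change of -0.59 (95% interval -1.21 to 0.02, adjusted p = 1). Scn1a, a channel of large fibres, read 264 and 175 against 403 and 481 (adjusted p = 1). Scn11a, a persistent-current channel of small nociceptors, read 1387 and 840.5 against 1737 and 1211, and its groups overlapped. Scn9a read 434 and 406 against 381 and 482, a change of -0.03 (95% interval -0.44 to 0.38). With the 21-day sham arrays as control the changes of Scn10a, Scn11a and Scn1a turned to 0.04, 0.12 and 0.42. The 14-day sham arrays thus read higher for these 3 genes than the 21-day sham arrays, which were 377, 344 and 331 for Scn10a, 1202, 895 and 908 for Scn11a and 189.8, 256 and 76.4 for Scn1a.

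Of 38 measured potassium channel genes, 3 were higher and 13 lower on both Seltzer arrays and none passed, with a median log2 change of 0.00, against 18.9% and 17.8% of all genes. Of the 6 with a mean above 250, none was higher and 5 were lower on both Seltzer arrays. Over the 1204 genes with such a mean these shares were 24.3% and 21.9%. Kcna1, a channel of the juxtaparanode, read 472 and 488 against 744 and 737, and Kcnab2, its cytosolic partner, 916 and 788 against 1155 and 1089. Kcnd3, a transient channel, read 137 and 191 against 271 and 262, and Kcns3, a silent subunit, 218 and 172 against 245 and 342. Among 17 nociceptor transducers and purine receptors 2 were higher and 5 lower on both Seltzer arrays, against the same 18.9% and 17.8% of all genes, and none passed. P2rx3, the ATP receptor of nociceptors, read 1123 and 954 against 1179 and 1451, with separated arrays and a log2 change of -0.33 (95% interval -0.96 to 0.30). Trpv1, the capsaicin receptor, read 148 and 147 against 124 and 201, below background on all 4 arrays.

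No peptide of intact nociceptors passed the test. Calca, the gene of CGRP, read 1213 and 1132 against 1399 and 1382, a log2 change of -0.24 (95% interval -1.17 to 0.69). Tac1, the gene of substance P, read 2151 and 1621 against 2438 and 2109.7, and its groups overlapped. Somatostatin, Sst, read 759 and 621 against 930.0 and 792, and Pnoc, the precursor of nociceptin, 530.5 and 480.2 against 570.0 and 764. Of the 7 measured members of this list 3 (Calca, Sst and Pnoc) were lower on both Seltzer arrays and 1 was higher. Over all genes 17.8% were lower and 18.9% higher. The median log2 change of the list was -0.28.

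Genes of antigen presentation by MHC class II formed the second group with large values after injury. RT1-Da, the alpha chain of a rat class II molecule, read 2647 and 2093 on the Seltzer arrays and 722 and 810.2 on the sham arrays. It rose 3.08-fold, by 1.60 on the log2 scale (SE 0.21, adjusted p = 0.00575), a call lost with arrays centred on their median (adjusted p = 0.0582). A dimmer RT1-Da probe set read 300.4 and 270.2 against 65.5 and 61.9, in the same direction but not past the test (adjusted p = 0.197). Cd74, the invariant chain that guides class II molecules to the endosome, read 1788 and 1121 against 686 and 606, 2.2-fold (log2 1.12, SE 0.22, adjusted p = 0.0916). Its probe set with the largest difference read 755 and 610.0 against 31.8 and 145 (adjusted p = 0.65). Ctss, the protease that cleaves the invariant chain in macrophages, read 294 and 294 against 128 and 119, at least 1.25-fold (log2 1.15, adjusted p = 0.0783, and 0.0269 when replicate number was a block). The differences of Cd74 and Ctss were separated between groups but did not pass. RT1-Db1, a class II beta chain, read 416 and 400.4 against 301 and 389, a far smaller difference than that of RT1-Da. Over all genes 18.9% were higher and 17.8% lower on both Seltzer arrays. Of 9 measured genes of the class II pathway 6 were higher on both Seltzer arrays, none was lower on both, and the median log2 change was 0.78. Of these 9, 7 were above background on any of the 4 arrays and 5 had a mean above 250, 4 of them higher and none lower on both Seltzer arrays. Over the 1204 genes with a mean above 250 in either group, 24.3% were higher and 21.9% lower on both.

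The promoters of RT1-Da and Cd74 are shown because class II genes are known to share an X box, bound by RFX, and a Y box with the letters CCAAT, through which the coactivator CIITA works. The window and the marked motifs are those given for Npy and Vgf.
RT1-Da (chr20:4515165-4515464, plus strand): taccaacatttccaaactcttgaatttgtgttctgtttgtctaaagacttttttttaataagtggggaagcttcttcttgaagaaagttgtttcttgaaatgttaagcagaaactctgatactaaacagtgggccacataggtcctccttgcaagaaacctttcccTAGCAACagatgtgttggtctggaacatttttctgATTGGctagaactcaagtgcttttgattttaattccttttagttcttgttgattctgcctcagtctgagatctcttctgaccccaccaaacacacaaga
Cd74 (chr18:56526956-56527255, plus strand): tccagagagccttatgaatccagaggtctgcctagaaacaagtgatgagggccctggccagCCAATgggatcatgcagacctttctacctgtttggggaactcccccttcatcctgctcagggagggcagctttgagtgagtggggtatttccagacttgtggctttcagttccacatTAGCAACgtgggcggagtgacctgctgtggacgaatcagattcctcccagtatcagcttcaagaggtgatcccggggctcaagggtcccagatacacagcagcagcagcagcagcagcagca

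RT1-Da holds the X box core 84 bases before the start and a reversed CCAAT 49 bases before it. Cd74 holds the X box core 72 bases before the start and CCAAT 189 bases before it. Of the 9 class II pathway genes measured, 8 have a window in the table. All 8 of these hold CCAAT and 3 hold the X box core (RT1-Da, Cd74 and RT1-Db1), against 37.5% and 3.58% of all windows. A gene was counted if any of its windows held a match. Because the X box core was chosen after the sequences were seen, its count is no test. The CCAAT count is of matches anywhere in the window, in Ctss 17 bases after the start, and not of Y boxes. A match of letters is a description of the sequence and not a measured site.

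Among macrophage and complement genes, lysozyme Lyz2 read 2199 and 1789.6 against 946 and 1327, and Ccl2, a chemokine that draws monocytes and is also made by injured neurons, 740.1 and 762 against 379.5 and 382. Ccl2 was 1.97-fold higher with almost no spread within groups, but it did not pass (log2 0.95, SE 0.20, adjusted p = 0.113). Its dimmer probe set read 139.9 and 72.9 against 80.6 and 104, below background and overlapping. Cd14, a receptor for bacterial products, was lower on both Seltzer arrays, at 211 and 173 against 241 and 306. Of 26 measured macrophage and complement genes 10 were higher and 3 lower on both arrays, none passed, and the median log2 change was 0.02. This count and those for class I and interferon below stand against 18.9% of all genes higher and 17.8% lower. For class I presentation the counts were 4 higher and 3 lower of 15, and beta-2 microglobulin, B2m, read 1673 and 1283 against 1185 and 1040.0. Of 14 interferon-stimulated genes 8 were higher and 2 lower on both arrays, with a median log2 change of 0.40, but only 6 of the 14 were above background on any of the 4 arrays. Irf7, an interferon regulatory factor, passed on 1 probe set at 56.5 and 77.8 against -25.9 and -37.9, all below background, so no fold can be given. T and B cell genes, 13 in number, had no member with a mean above 250. A further 3 genes complete the largest differences among separated probe sets with a mean above 250, and none passed (adjusted p = 1). They were Fdft1, an enzyme of cholesterol synthesis, at 631 and 387 against 324 and -48.0, A2m, a protease inhibitor, at 109.9 and 514 against -11.8 and 1.27 on 1 probe set, and Vav2 at 268 and 322 against 109.8 and 105. For Fdft1 and A2m the 2 Seltzer arrays lay farther from each other than the nearest Seltzer and sham arrays did.

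Kctd13, an adaptor of a cullin ubiquitin ligase, had the largest fall among the probe sets that passed. It read 216 and 193 on the Seltzer arrays and 1791 and 1833 on the sham arrays, so it was 8.87-fold lower. Kctd13 fell by 3.05 on the log2 scale (SE 0.22, adjusted p = 1.83e-05), a call held without any 1 of the 4 arrays. Its other 2 probe sets read 287 and 358 against 357 and 254 and 179 and 86.7 against 148 and 247, and both overlapped, so the fall stands on 1 of 3 probe sets. Psmb4, a beta subunit of the proteasome, fell on 1 of 3 probe sets, from 289.6 and 533 to 71.5 and 30.8, at least 1.97-fold (log2 -2.68, SE 0.42, adjusted p = 0.0222). The brightest Psmb4 probe set had the opposite sign, at 2418 and 2082 against 1624 and 1423, and the remaining one overlapped. On the 21-day sham arrays the fallen probe set read 4123, 1923 and 2110.1, far above both 14-day groups. The Psmb4 call was lost without Seltzer replicate 2 (adjusted p = 0.202), without sham replicate 2 (0.142), with 64 added (0.0788), with arrays centred on their median (0.0582), without the 50-day arrays (0.0591) and with values floored at 200 (adjusted p = 1).

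The other large differences downward did not pass. Nefh, the heavy neurofilament of large sensory axons, read 474 and 636 against 1003 and 1202 on 1 probe set, 2-fold lower (log2 -0.98, adjusted p = 0.113). A brighter Nefh probe set overlapped, at 3023 and 2611 against 3032 and 2248. The other neurofilaments Nefl and Nefm overlapped too, at 5457 and 4468 against 6954 and 2479 for Nefl and 4798 and 4005 against 5995 and 3180.0 for Nefm. Map1a, a microtubule protein of mature axons, read 837 and 609.6 against 1414 and 1126, and Elavl4, an RNA-binding protein of neurons, 826 and 652 against 1102 and 1093. Of the 13 measured cytoskeleton genes 1 was higher and 3 lower on both Seltzer arrays by their brightest probe sets, none of which passed. Over all genes these shares were 18.9% and 17.8%. A dimmer probe set of Map1b, below background, did pass. Pmp22, a protein of compact myelin, read 293 and 154 against 597 and 486 on 1 probe set (log2 -1.28, adjusted p = 0.0901, and 0.0269 when replicate number was a block). Its brighter probe set read 5455 and 4952 against 6289.7 and 3120.5 and overlapped. Without Seltzer replicate 1 the Pmp22 difference passed (adjusted p = 0.00347). Hsf1, the heat shock factor, read 4.89 and 106 against 353 and 235, and Mbnl2, a splicing regulator, 57.2 and 63.0 against 363 and 342. Cabp1, a calcium sensor of synapses, read 75.4 and 107 against 201 and 487, and Cct6a, a chaperonin subunit, 76.6 and 65.1 against 243 and 258. Agxt, a peroxisomal aminotransferase, read 41.5 and 264 against 294 and 279, Cpsf7, a factor of polyadenylation, 183 and 235 against 367 and 540.0, and Bcl2l11, a promoter of apoptosis, 187 and 123 against 436 and 230.5.

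The remaining probe sets that passed had means below 250 in both groups. They were Sart1, Ap3m2, Irf7, Cntn1, Serpina7 and Gas5 among those higher, and Map1b, Gpr19, Cdk2 and F10 among those lower. The smallest adjusted p of the comparison, 8.4e-08, belonged to Map1b, a microtubule protein, at -13.3 and -19.3 against 12.5 and 11.0. Values below 0 were set to 0 for the test, so this is a difference between 0 and readings far below background, and its log2 change of -0.79 has an SE of 0.03. The call of Map1b was lost with values floored at 200 (adjusted p = 1), with arrays centred on their median (0.788) and with the 21-day sham arrays as control (1). Ap3m2, a subunit of a vesicle coat, was the brightest of those higher, at 223 and 138 against 46.4 and 55.9.

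**Figure D3:**
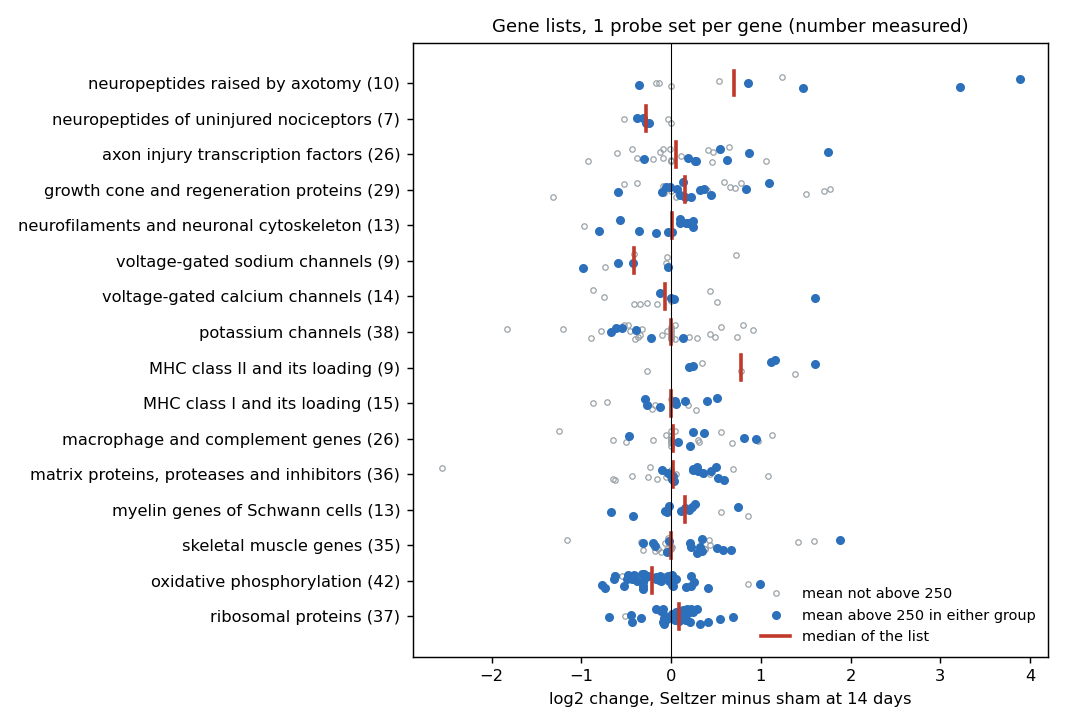
Log2 change of Seltzer against sham at 14 days (x axis) for the genes of 16 lists, each gene shown by its brightest probe set. Filled blue points have a mean above 250 in either group, open grey points do not, and red bars are list medians. The medians of the axotomy neuropeptides (0.70) and the class II pathway (0.78) lie farthest to the right, that of sodium channels (-0.42) farthest to the left.

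The gene lists that follow had no member past the test, and their counts stand against 18.9% of all genes higher and 17.8% lower on both Seltzer arrays. Of 36 matrix and protease genes 13 were higher and 2 lower on both Seltzer arrays, with a median log2 change of 0.02, among them the collagen Col1a2 at 3306 and 2803 against 2331 and 1908 and the membrane metalloprotease Mmp14 at 307 and 289 against 185 and 202. Timp1, a metalloprotease inhibitor, read 345 and 398 against 352 and 395. Of 42 oxidative phosphorylation genes 4 were higher and 16 lower, with a median of -0.21, and Ndufb6, a subunit of complex I, was the lowest with a mean above 250, at 1016 and 1255 against 2018 and 1872 (log2 -0.77, adjusted p = 0.322). Of 37 SNARE and synaptic vesicle genes 4 were higher and 12 lower, with a median of 0.00, Stx1a at 626 and 588 against 411 and 422 being the exception with a mean above 250 that was higher. Of 50 receptor subunits for GABA, glutamate, glycine and acetylcholine 6 were higher and 13 lower (median -0.15), and of 47 G protein-coupled receptors 6 and 8. Of 27 heat shock proteins and chaperones 3 were higher and 10 lower (median -0.09), and of 37 ribosomal proteins 9 and 6 (median 0.09). Ret, the signalling receptor of the GDNF family, read 1193 and 1243 against 966 and 857 (log2 0.41, adjusted p = 0.65), and 4 of the 16 GDNF and neurotrophin genes were higher and 3 lower. Of 13 Schwann cell myelin genes 4 were higher and 2 lower, with Mbp at 1449.8 and 1033 against 1697 and 1604 and Cnp at 633 and 606 against 381 and 348.

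The labelled tissue was checked against defining markers. All 10 markers of sensory neurons had a mean above 250, and their summed intensity was 31426 and 26595 on the Seltzer arrays against 34729 and 22041 on the sham arrays, overlapping. All 4 measured Schwann cell markers and 1 of 4 satellite glia markers had a mean above 250, and their sums overlapped as well, while none of 3 T cell markers did. Skeletal muscle markers were bright, all 6 measured ones above 250. On both Seltzer arrays 4 of the 6 were higher, against 24.3% of the genes with such a mean. Their sums were 6504 and 6730 on the Seltzer arrays against 4538 and 5342 on the sham arrays. Acta1, muscle actin, read 2091 and 2242 against 1543 and 1870.1. Of the 35 measured genes of the wider skeletal muscle list 11 were higher and 2 lower on both Seltzer arrays, with a median log2 change of 0.00. Macrophage markers summed to 2410 and 1987 against 1186 and 1633 over 3 measured genes, 1 higher and 1 lower on both Seltzer arrays. The 3 oligodendrocyte markers Mog, Mobp and Cnp, of which Cnp is also made by Schwann cells and was the only one above 250, were all higher and summed to 672 and 646 against 396 and 359.8. These 3 sums were higher on both Seltzer arrays than on both sham arrays. Over all genes 18.9% were higher and 17.8% lower on both Seltzer arrays. Such a separation is common with so few arrays and does not by itself show an effect of the injury. The part of these 3 sums in the results above was not tested.

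The comparison with CCI at the same day asks where a partial injury and a constriction of the same nerve differ. It uses the same Seltzer arrays as the comparison above but not its sham arrays. Between CCI and Seltzer ganglia at 14 days 153 of 8740 probe sets (1.75%) differed at an adjusted p under 0.05, 75 higher and 78 lower in CCI. In 147 of the 153 both 14-day sham arrays also lay on the Seltzer side of every CCI array. All 3 of the 21-day sham arrays did so in 33. Neither count requires Seltzer and sham arrays to be alike, and a graded difference such as that of Cacna2d1 can meet them. Cox6c, a subunit of cytochrome oxidase, read 183 and 168 in Seltzer and 358 and 219 in sham ganglia at 14 days, against 3407, 3546 and 3253 in CCI ganglia and 1371, 1844 and 2057 in sham ganglia at 21 days. Egr1 went the other way, at 955 and 873 in Seltzer ganglia and 276, 311 and 261 in CCI ganglia, and 313, 256 and 248 in sham ganglia at 21 days. The genes with the smallest adjusted p in this comparison were Ivd, Cox6c, Gnb1, Rpl27, Srsf2, Egr1, Psmb4 and Sparc. All had both 14-day sham arrays on the Seltzer side of every CCI array.

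At some probe sets the 14-day Seltzer and sham arrays shared levels apart from the CCI arrays. The type of injury and this difference between arrays cannot be told apart for the genes given here. Cacna2d1 was higher after CCI, at 3439, 3208 and 4012, than after the Seltzer injury (log2 difference 0.93, SE 0.16, adjusted p = 0.0089). Both injuries lay above every sham array at 14 and 21 days. Kctd13 was lower after CCI, at 64.01, 128 and 68.9 (log2 difference -1.15, SE 0.20, adjusted p = 0.00747). Scn11a was lower after CCI, at 571, 466 and 545 (log2 difference -1.02, adjusted p = 0.0331), and Acta1 was higher, at 4017, 3818 and 4406 (log2 difference 0.91, adjusted p = 0.0467). Npy read 2826, 2563 and 2811 after CCI, above both Seltzer arrays, but the difference of 1.89 did not pass (95% interval 0.60 to 3.17, adjusted p = 0.191). Gal read 1373, 1508 and 1373 after CCI, a difference of 0.98 (95% interval -0.34 to 2.31, adjusted p = 0.791). Atf3 read 852, 728 and 876 after CCI, a difference of 0.53 (95% interval 0.16 to 0.90, adjusted p = 0.208). For RT1-Da the CCI arrays, at 2115, 1829.5 and 2616, overlapped the Seltzer arrays, with a difference of -0.12 (95% interval -0.54 to 0.30). Adcyap1 read 476, 527 and 522 after CCI, below both Seltzer arrays, and did not pass (difference -0.47, adjusted p = 0.526).

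**Figure D4:**
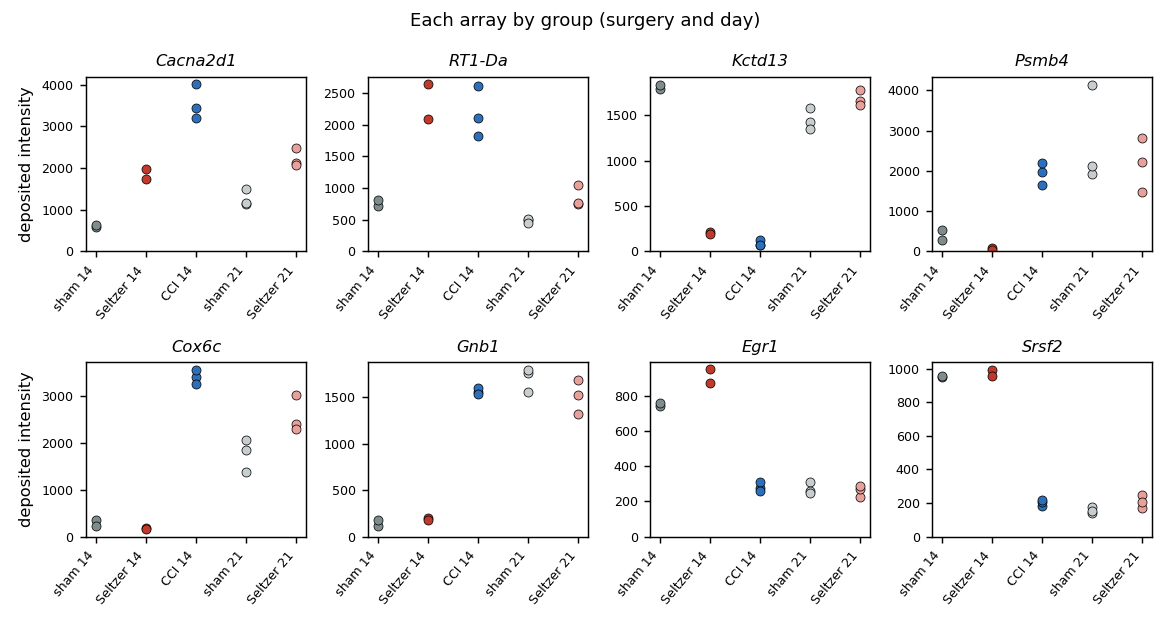
Deposited intensity (y axis, linear, from 0) on each array of 5 groups for 8 genes, with groups by surgery and day after it on the x axis. Cacna2d1 and RT1-Da are higher after injury at 14 days than on either set of sham arrays, and Kctd13 is low after both injuries at 14 days. In Psmb4, Cox6c, Gnb1, Egr1 and Srsf2 the 14-day sham and Seltzer arrays stand together apart from the other 3 groups.

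The Seltzer effect at 21 days was set against that at 14 days, each with its own sham arrays, and 13 of 8740 probe sets (0.149%) differed at an adjusted p under 0.05. Kctd13 was low at 14 days and not at 21 days, when it read 1664, 1781 and 1617 on the Seltzer arrays and 1425, 1581 and 1347 on the sham arrays (difference of effects 3.27, SE 0.28, adjusted p = 0.000166). No difference between the days passed for Npy, Atf3, RT1-Da, Cacna2d1, Adcyap1 or Ptpro, the genes with a mean above 250 that rose at 14 days. It did pass for Sart1, Cntn1, Serpina7 and Gas5, which rose at 14 days with means below 250 and had lower effects at 21 days. Atf3 read 661, 508 and 539.7 on the Seltzer arrays at 21 days against 183, 159 and 159.8 on their sham arrays, with a difference of effects of -0.08 (95% interval -0.61 to 0.44). Npy read 2467, 1171 and 995 against 61.4, 2.05 and -18.2 (difference of effects 1.79, 95% interval -0.02 to 3.61), and Gal 497, 547 and 446 against -11.3, 58.9 and 81.1 (0.17, -1.70 to 2.04). Cacna2d1 read 2492, 2128 and 2065 against 1497, 1139 and 1154, its smaller effect at 21 days giving a difference of -0.78 (95% interval -1.28 to -0.28, adjusted p = 0.59). RT1-Da read 1054, 754 and 757 against 495, 503 and 442, a difference of -0.80 (95% interval -1.39 to -0.21, adjusted p = 0.89). Gap43 read 1921, 2566 and 3287 against 657, 1402 and 1223, where 1 of 3 sham arrays was low, and Vgf read 640.5, 748 and 772 against 262, 296 and 545.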

How the data were processed

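Intensity values were used as deposited by the authors, 1 column per array on a linear scale with some values below 0. Every array has the same mean after trimming 2% at each end (about 150), by the values; no label names the scaling software, which is not given in the sources used here. Of 8799 probe sets the 59 control probe sets were left out, which left 8740. Negative deposited values became 0, and log2(value + 16) was fitted with limma 3.58.1 (lmFit, eBayes) in R 4.3.3, with a mean for each of 8 groups over all 20 arrays (12 residual degrees of freedom). Tests were two-sided, adjusted by Benjamini-Hochberg over all 8740 probe sets, with a threshold of 0.05. All arrays were used because 2 a side leave few degrees of freedom.

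A fold is the ratio of geometric mean intensities; if no array of the dimmer group exceeded background, it is a lower bound against the background level, written "at least". Log2 changes of dim genes depend on the number added. Gene symbols are those of the platform annotation: 7006 probe sets had 1, 308 several and 1426 none, and 6985 were found in the current rat annotation. Promoters are RefSeq (GRCr8). The number of arrays limits the precision.

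Named are the 12 largest rises and falls with a mean above 250 in either group, separated arrays and 1 symbol (those that passed first), up to 4 members per list, a set of genes always reported, and the 8 smallest adjusted p of the other contrasts; the rest were chosen after their values were seen. The comparison, rules and lists were chosen with earlier results of these data known. Figures used Python 3.11.15 with matplotlib 3.10.9, and statmod 1.5.0 was installed beside limma. Alternatives are given with their effect at the end.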

Additional observations from a re-analysis of the deposited data

Results flagged for a closer look

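The effect of the Seltzer injury differed between 21 and 14 days, by the test of the difference itself, for the 8 genes given here, beside Sart1 and Gas5 named above. Kctd13, Rpl19l4 and Kank2 were above background on some of the 14-day arrays. For Kctd13 the log2 effect at 21 minus 14 days was 3.27. For Rpl19l4, a ribosomal protein-like gene, it was 2.27 (adjusted p = 0.0345), with 822 and 732 against 1094 and 1056 at 14 days and 2565, 1440.0 and 1156 against 529, 425 and 413 at 21 days. For Kank2 it was -2.10 (adjusted p = 0.044), with 276 and 266 against 111 and 126 at 14 days and 81.3, 77.7 and 42.0 against 207, 126 and 118 at 21 days.

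The other 5 read below background on all 4 arrays at 14 days, and of these Gpr19 exceeded it on some 21-day arrays. The differences of effects were 0.79 for Map1b, 3.48 for Gpr19, -2.49 for Apbb3, -2.27 for Cntn1 and -0.65 for Serpina7. Gpr19, an orphan receptor, read -5.88 and -13.9 against 66.2 and 143 at 14 days and 265, 380.5 and 473 against 190.5, 266 and 232 at 21 days. Apbb3, an adaptor of the amyloid precursor protein, read 24.2 and 49.1 against 48.6 and 15.9 at 14 days and -13.6, -9.04 and -22.9 against 73.4, 45.2 and 77.2 at 21 days.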

How the results depend on the processing

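The number of probe sets that passed at 14 days, 18, was 14 to 18 with 1 or 64 added, quantile normalization, the 50-day arrays left out, or trend and robust settings. It was 35 with a floor at 200, 5 (3 higher, 2 lower) with arrays centred on their median, 7 among probe sets whose 4-array mean was above 250, 0 with only the groups compared, 66 with array weights and 269 (158 higher, 111 lower) with the 21-day sham arrays as control. It ran from 16 to 56 when 1 array was left out, the most without Seltzer replicate 1. CCI against Seltzer, 153, gave 84 with arrays centred on their median, 451 with only the groups compared, 797 with array weights and 90 to 137 without 1 array. The difference of effects between days, 13, gave 7 with 64 added, 1 with arrays centred on their median, 5 with the filter on the mean, 8 with only the groups compared, 6 without the 50-day arrays, 27 with array weights and 7 to 51 without 1 array. The separated probe sets, 828, were 452 with a mean above 500 and 3113 with no minimum. The cause of these changes was not tested. When replicate number entered as a block, these counts were 18, 137 and 8; the deviations of same-numbered Seltzer and sham arrays correlated at 0.0497 over all probe sets and 0.127 over those with a mean above 250, with 2 pairs, fewer than the 3 needed to judge, so the numbers were not taken to pair the arrays. The block ended the calls of Cdk2, F10 and Irf7 and added those of Ctss, Pmp22 and Vgf.

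The calls of Atf3 and Kctd13 were lost with only the groups compared and in none of the other 15 settings run for each. Of the changes of named genes, 668 kept their side of the threshold without reversing, 4 of them at 0 with a floor at 200, while 106 lost a call, 31 gained one and 18 reversed, all of which had main values near 0 or not past the threshold except F10. With the 21-day sham arrays as control the reversed values were 0.02 for F10, 0.04 for Scn10a, 0.12 for Scn11a, 0.42 for Scn1a, 0.40 for Scn9a, 0.23 for Sst and 0.09 for Tac1. With arrays centred on their median they were 0.03 for Scn9a, 0.01 for Sprr1a and 0.05 for Timp1, and with quantile normalization 0.02 for Timp1. When 1 array was left out, values ran from -0.19 to 0.13 for Scn9a, from -0.27 to 0.17 for Sprr1a, from -0.11 to 0.09 for Timp1 and from -0.41 to 0.23 for Trpv1. A group reduced to 1 array was assumed to vary like the other groups. Signal over background limits the comparison, since 2399 of 8740 probe sets exceeded it on any of the 4 arrays.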
